A study of Mus musculus with 8 samples.

Results

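Toll-like receptors are germline-encoded sensors of microbial molecules, and Cd14 is a co-receptor that hands bacterial lipids to several of them. The mRNA of 10 of these genes (Tlr1, Tlr2, Tlr3, Tlr4, Tlr6, Tlr7, Tlr8, Tlr9, Tlr13 and Cd14) was measured in mouse bone marrow-derived dendritic cells (BMDCs) after 12 h or 4 h with a plant extract or its vehicle. Members were the probe sets whose annotation gives exactly 1 of these symbols, which found 16 of the 45037 probe sets tested and 10 of the 18193 genes that have such a probe set. Where a gene had several probe sets, the one with the highest mean log2 signal was used as its main value and the others are given beside it. All 4 of Tlr1, Tlr2, Tlr13 and Cd14 were higher at 12 h than at 4 h under both treatments, Tlr1 by about 6-fold. Of these 4, Tlr1 alone kept its calls within each treatment when each array was centred on its median. Those of Tlr1 were lost too in a fit without the dependence of the spread on intensity. No member passed the test between extract and vehicle at either time.

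In mammals, each Toll-like receptor has an extracellular or endosomal domain of leucine-rich repeats that binds a ligand, and a cytoplasmic TIR domain that recruits the adaptors Myd88 or Ticam1 (TRIF). Tlr1, Tlr2, Tlr4 and Tlr6 act mainly at the cell surface on bacterial lipids, whereas Tlr3, Tlr7, Tlr8, Tlr9 and Tlr13 reside in endosomes and respond to nucleic acids, after delivery by the chaperone Unc93b1 and, for several, cleavage by lysosomal proteases. Dendritic cells use these receptors to detect microbes, and signalling from them drives maturation and cytokine production.

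The 8 arrays fell into 4 groups of 2. BMDCs received [BF/S+L/Ep], an extract of Echinacea purpurea of known chemical composition, at 75 µg/mL for 12 h, or the vehicle DMSO at 0.1% for 12 h, or either of these for 4 h. All cells came from the bone marrow of 6-week-old female BALB/c mice, all were grown for 9 days with GM-CSF (200 U/mL by the labels), all received the same concentration of DMSO, and only the non-adherent cells were used. No array was made before treatment, so a difference between 12 h and 4 h also holds whatever else changed in culture over those hours. The study speaks of its replicates both as biological samples and as duplicate chips, and nothing in the labels ties the arrays to separate cultures or animals. The p-values therefore measure only the spread between these arrays, which may be technical.

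Each value is a signal on a linear scale, with every array scaled by the authors to the same trimmed mean of 500 units. The signals are not counts and have no sequencing depth, and precision is limited by 2 arrays per group. For each array, the 95th percentile of 84 probe sets of olfactory, vomeronasal and taste receptor genes served as a background reference, and it lay between 66.6 and 106.9 units. On each array 48.8% to 54.9% of all probe sets exceeded it. Of the 10 measured markers listed for conventional dendritic cells, 9 exceeded this reference on all 8 arrays, including Itgax, Zbtb46, H2-Aa and Ccr7. The exception was Flt3, above it on 6 arrays. All 7 measured macrophage and monocyte markers were above it on all 8 arrays as well. So were 5 of the 8 plasmacytoid dendritic cell markers, with Siglech above it on 0 arrays, and none of the 7 measured B cell markers. Of 8 measured neutrophil and precursor markers 3 were (S100a8, S100a9 and Ngp), and of 6 mast cell markers 1 was (Kit). None of the 6 measured T and NK cell markers and none of the 6 stromal cell markers exceeded it on all 8 arrays. These are bulk RNA samples, in which fewer cells of a type and less RNA per cell cannot be told apart.

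The sequence upstream of the start of transcription is shown for 3 receptor genes higher at 12 h under both treatments (Tlr1, Tlr2 and Tlr13). It is also shown for 2 that did not pass any test, Tlr3 and Tlr9, whose signals lay near the background reference. The sequences are from RefSeq (GRCm38.p6) and cover the 250 bases before the start, 5′ to 3′ on the gene's strand. The windows are chr5:64933559-64933808 (minus strand, the more upstream of 2 starts) for Tlr1, chr3:83841609-83841858 (minus) for Tlr2, chrX:106143025-106143274 (plus) for Tlr13, chr8:45410381-45410630 (minus) for Tlr3 and chr9:106222348-106222597 (plus) for Tlr9. Capitals mark matches, on either strand, to 3 motifs: GAGGAA, the core bound by the myeloid factor PU.1, the decamer consensus of NF-κB, and TGANTCA of AP-1.
Tlr1: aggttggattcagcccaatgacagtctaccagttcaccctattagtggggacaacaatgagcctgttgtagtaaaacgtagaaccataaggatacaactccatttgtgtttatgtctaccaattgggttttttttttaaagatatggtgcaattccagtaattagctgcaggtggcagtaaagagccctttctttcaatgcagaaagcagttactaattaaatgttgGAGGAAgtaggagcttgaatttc
Tlr2: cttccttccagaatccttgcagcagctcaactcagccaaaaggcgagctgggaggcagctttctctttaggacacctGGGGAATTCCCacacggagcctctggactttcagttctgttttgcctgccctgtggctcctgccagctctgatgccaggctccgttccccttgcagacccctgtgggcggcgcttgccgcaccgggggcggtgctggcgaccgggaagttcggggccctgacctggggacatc
Tlr13: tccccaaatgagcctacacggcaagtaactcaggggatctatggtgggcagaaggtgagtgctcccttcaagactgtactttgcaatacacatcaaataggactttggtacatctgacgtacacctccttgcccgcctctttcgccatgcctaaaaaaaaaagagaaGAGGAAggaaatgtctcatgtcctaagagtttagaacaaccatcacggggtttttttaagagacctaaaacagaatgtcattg
Tlr3: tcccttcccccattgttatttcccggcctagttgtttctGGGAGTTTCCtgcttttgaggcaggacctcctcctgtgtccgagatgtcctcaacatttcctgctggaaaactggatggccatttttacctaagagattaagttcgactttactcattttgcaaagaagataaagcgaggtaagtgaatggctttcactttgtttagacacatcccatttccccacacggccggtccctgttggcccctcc
Tlr9: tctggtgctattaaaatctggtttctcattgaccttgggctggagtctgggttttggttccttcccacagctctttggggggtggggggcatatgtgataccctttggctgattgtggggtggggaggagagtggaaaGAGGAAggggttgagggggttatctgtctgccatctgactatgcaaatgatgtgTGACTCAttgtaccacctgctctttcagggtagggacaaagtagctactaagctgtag

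Tlr1 and Tlr13 each held 1 PU.1 match and Tlr9 held 1 PU.1 and 1 AP-1 match, while Tlr2 and Tlr3 held an NF-κB match, which in Tlr2 is 2 overlapping decamers read from a single stretch of capitals. Among all 32851 promoter records of the same length, 23.3% held the PU.1 motif, 7.3% the NF-κB motif and 6.7% the AP-1 motif. Records were searched for 7 members in all. Of those not printed, Tlr8 held a PU.1 match, and neither start of Tlr6 nor the more downstream start of Tlr1 held any match. The PU.1 and NF-κB motifs were thus each found upstream of a gene that passed and of one that did not. In the RefSeq annotation Tlr1 and Tlr6 are next to each other among protein-coding genes on chromosome 5, and Tlr7 and Tlr8 are next to each other on the X chromosome.

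**Figure D1:**
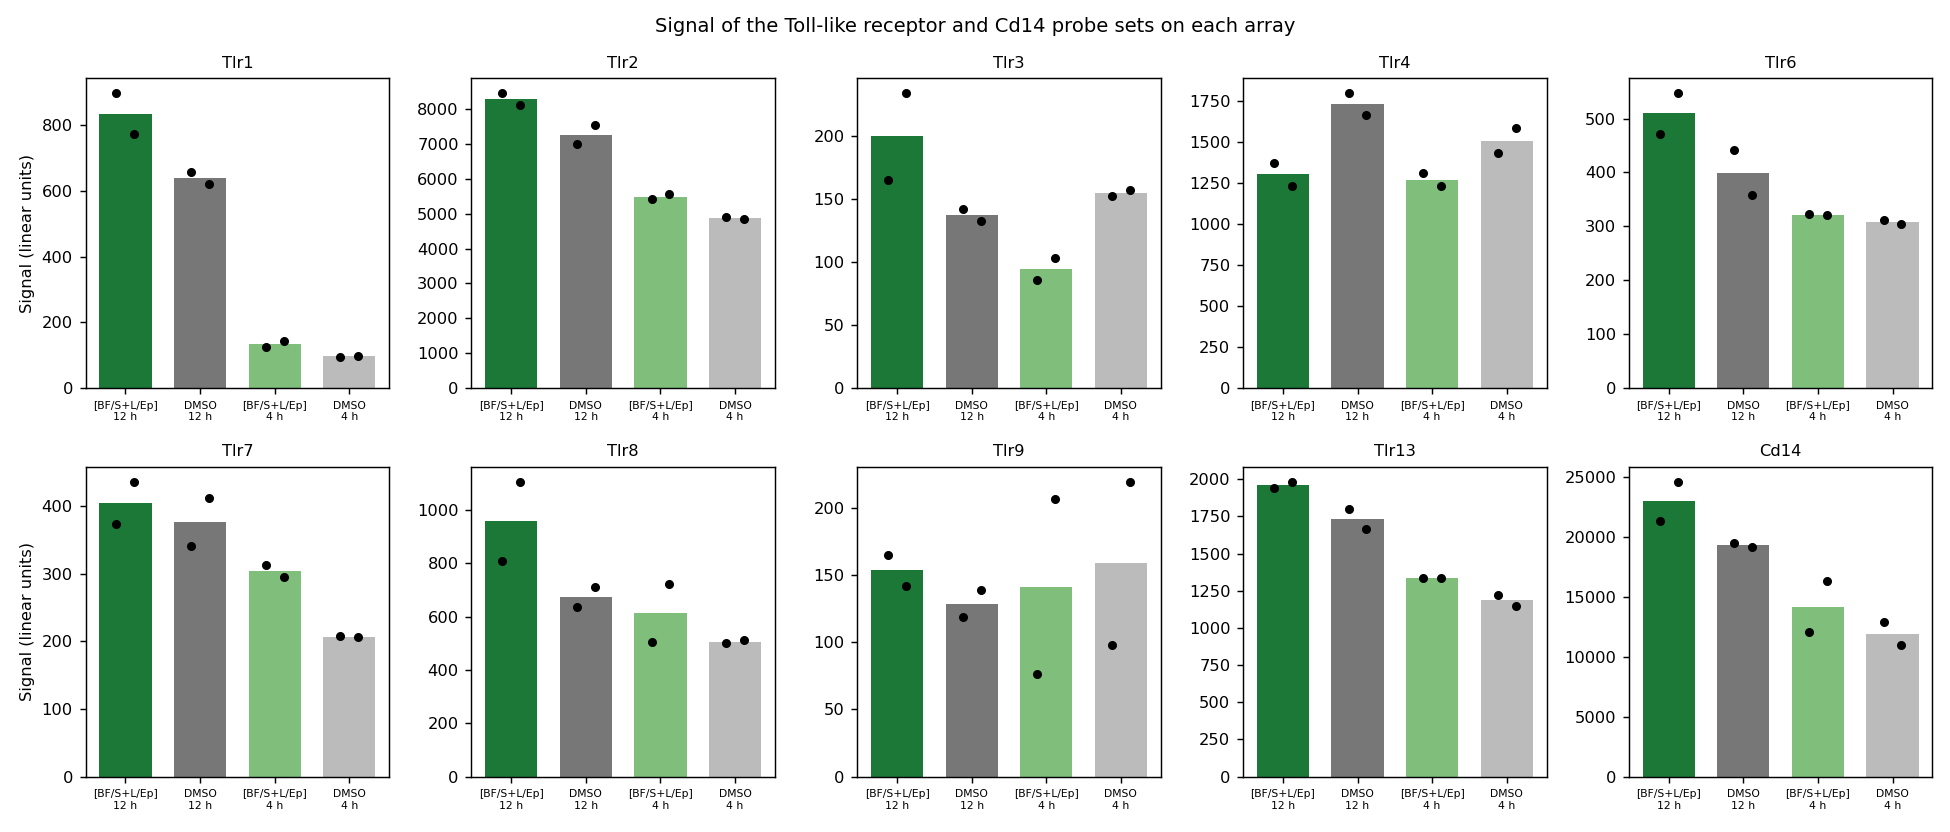
Signal in linear units on each array for the brightest probe set of each member, with 1 panel per gene and its own vertical axis from 0. Bars are the mean of 2 arrays and points are the single arrays, and the fold between 12 h and 4 h is larger for Tlr1 than for any other member, with Tlr1 at 12 h between 621.4 and 897.4 units.

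Tlr2 pairs with Tlr1 to bind triacylated lipopeptides and with Tlr6 to bind diacylated ones. Tlr1 (probe set 1449049_at) had signals of 897.4 and 773 in [BF/S+L/Ep] at 12 h, 657.6 and 621.4 in DMSO at 12 h, 124 and 143.5 in [BF/S+L/Ep] at 4 h, with 95.2 and 97 in DMSO at 4 h. All 4 arrays of 12 h lay far above all 4 arrays of 4 h, and 1 array of DMSO at 4 h was just under its background reference, so Tlr1 was at the edge of detection in DMSO at 4 h. The log2 fold change of 12 h over 4 h was 2.64 (SE 0.22) in [BF/S+L/Ep] and 2.73 (SE 0.22) in DMSO, with adjusted p-values of 2.00e-05 and 1.61e-05 by limma with Benjamini-Hochberg adjustment over all probe sets. With both treatments averaged, the 12 h level was 6.44-fold that at 4 h (95% interval 5.12 to 8.11). A stricter reference was the 99th percentile of the same background probe sets. Setting the 4 h DMSO level no lower than it gave a 5.67-fold difference in DMSO, a point value without an interval. Without this floor the 95% interval of the fold in DMSO was 4.81 to 9.20.

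Tlr2 (1419132_at) was detected on every array, at 8467.4 and 8119.6 in [BF/S+L/Ep] at 12 h, 7011.2 and 7541.3 in DMSO at 12 h, 5426.6 and 5568.4 in [BF/S+L/Ep] at 4 h, with 4920.4 and 4843.5 in DMSO at 4 h. The 12 h and 4 h arrays did not overlap, and within each time both [BF/S+L/Ep] arrays were above both DMSO arrays. The time difference was 0.59 on the log2 scale in [BF/S+L/Ep] (SE 0.10, adjusted p = 0.00409, limma) and 0.57 in DMSO (SE 0.10, adjusted p = 0.00649, limma). The averaged fold was 1.499 (95% interval 1.35 to 1.66).

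Tlr6 (1421352_at), the partner of Tlr2 for diacylated lipopeptides, had signals of 472.1 and 547.3 in [BF/S+L/Ep] at 12 h, 441.1 and 357.4 in DMSO at 12 h, 322.3 and 321 in [BF/S+L/Ep] at 4 h, with 312.2 and 304.3 in DMSO at 4 h. All 12 h arrays were above all 4 h arrays. The log2 fold change was 0.66 in [BF/S+L/Ep] and 0.37 in DMSO, neither past the threshold alone (adjusted p = 0.103 and 0.495, limma), and 0.51 (SE 0.14, adjusted p = 0.0395, limma) with both treatments averaged. The averaged call was retained on leaving out only 1 of the 8 arrays (DMSO at 12 h, replicate 2), with adjusted p-values between 0.0426 and 0.154 (limma) over the 8, and was lost after quantile normalization, where the adjusted p was 0.0704 by limma, and with each array centred on its median, where it was 0.106.

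Cd14 (1417268_at), the surface co-receptor for lipopolysaccharide, had signals of 21367.7 and 24597.9 in [BF/S+L/Ep] at 12 h, 19513.5 and 19126.6 in DMSO at 12 h, 12057.5 and 16294.9 in [BF/S+L/Ep] at 4 h, with 12885.2 and 10962.6 in DMSO at 4 h. Every 12 h array was above every 4 h array, although the pair of [BF/S+L/Ep] arrays at 4 h differed more than any other pair of this gene. The 12 h level was 1.64-fold that at 4 h in [BF/S+L/Ep] (log2 0.71, SE 0.14, adjusted p = 0.0162, limma) and 1.63-fold in DMSO (log2 0.70, SE 0.14, adjusted p = 0.0210, limma).

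Tlr4 (1418162_at), which binds lipopolysaccharide together with Ly96 (MD-2), gave no call over time. Its signals were 1373.4 and 1232.8 in [BF/S+L/Ep] at 12 h, 1798.6 and 1663.5 in DMSO at 12 h, 1309.3 and 1231.5 in [BF/S+L/Ep] at 4 h, with 1432.6 and 1586 in DMSO at 4 h. Both [BF/S+L/Ep] arrays were below both DMSO arrays at each time, and the 12 h and 4 h arrays overlapped in [BF/S+L/Ep] but not in DMSO. The log2 fold change of 12 h over 4 h was 0.12 (95% interval -0.07 to 0.30) with both treatments averaged, with an adjusted p of 0.544 by limma.

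Tlr13 (1457753_at), a mouse receptor for bacterial ribosomal RNA, had signals of 1941.8 and 1981.9 in [BF/S+L/Ep] at 12 h, 1800.6 and 1663.7 in DMSO at 12 h, 1332.8 and 1334.6 in [BF/S+L/Ep] at 4 h, with 1220.8 and 1150.1 in DMSO at 4 h. The 4 groups did not overlap. At 12 h the DMSO arrays (1800.6 and 1663.7) differed about as much as the nearest arrays of the treatments (1800.6 and 1941.8). The 12 h level was 1.47-fold that at 4 h in [BF/S+L/Ep] (log2 0.56, SE 0.11, adjusted p = 0.0163, limma) and 1.46-fold in DMSO (log2 0.55, SE 0.11, adjusted p = 0.0217, limma).

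Tlr7 (1422010_at), a receptor for single-stranded RNA, had signals of 373.5 and 436.3 in [BF/S+L/Ep] at 12 h, 340.7 and 411.8 in DMSO at 12 h, 313.2 and 295.7 in [BF/S+L/Ep] at 4 h, with 207.8 and 206.8 in DMSO at 4 h. The DMSO arrays at 4 h were the lowest, and [BF/S+L/Ep] and DMSO overlapped at 12 h only. Averaged over treatments, the log2 fold change of 12 h over 4 h was 0.63 (SE 0.15, adjusted p = 0.0208, limma), while 0.41 in [BF/S+L/Ep] and 0.85 in DMSO did not pass alone (adjusted p = 0.431 and 0.0589, limma). The averaged call was retained on leaving out 2 of the 8 arrays (replicate 1 of [BF/S+L/Ep] at 12 h or of DMSO at 12 h), with adjusted p-values between 0.0366 and 0.0879 (limma) over the 8. It was lost with each array centred on its median, with an adjusted p of 0.0804 by limma.

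Tlr8 (1450267_at), whose human counterpart also responds to single-stranded RNA, had signals of 809.1 and 1104.7 in [BF/S+L/Ep] at 12 h, 635.4 and 709.9 in DMSO at 12 h, 503.5 and 722.9 in [BF/S+L/Ep] at 4 h, with 501 and 511.4 in DMSO at 4 h. The second [BF/S+L/Ep] array at 4 h was higher than both DMSO arrays at 12 h, so the times overlapped across treatments, though not within either treatment. The averaged log2 fold change was 0.53 (SE 0.14, adjusted p = 0.0372, limma), and the call was retained on leaving out 2 of the 8 arrays ([BF/S+L/Ep] at 12 h, replicate 1, or at 4 h, replicate 2), with adjusted p-values between 0.0148 and 0.158 (limma) over the 8. It was lost with each array centred on its median, with an adjusted p of 0.119 by limma, after quantile normalization, with 0.0533, and with an offset of 50 added before the logarithm, with 0.0525.

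Tlr3 (1422782_s_at), the receptor for double-stranded RNA, had signals of 165.1 and 233.7 in [BF/S+L/Ep] at 12 h, 141.8 and 132.2 in DMSO at 12 h, 85.7 and 102.8 in [BF/S+L/Ep] at 4 h, with 152 and 156.6 in DMSO at 4 h. The 12 h arrays were above the 4 h arrays in [BF/S+L/Ep] and below them in DMSO, without overlap in either. The log2 fold changes were 1.07 (95% interval 0.30 to 1.83) in [BF/S+L/Ep] and -0.17 (-0.94 to 0.59) in DMSO, and neither passed (adjusted p = 0.157 and 0.920, limma).

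Tlr9 (1422083_at), the receptor for unmethylated CpG DNA, gave the least repeatable signals of the set. They were 165.1 and 141.7 in [BF/S+L/Ep] at 12 h, 118.7 and 138.6 in DMSO at 12 h, 76.6 and 206.2 in [BF/S+L/Ep] at 4 h, with 98.1 and 219.3 in DMSO at 4 h. The spread between the 4 h arrays of either treatment was larger than any difference between groups, and the averaged log2 fold change of 12 h over 4 h was 0.04 (95% interval -0.72 to 0.81), or -0.04 after quantile normalization. Replicate 1 at 4 h, at 76.6 in [BF/S+L/Ep] and 98.1 in DMSO, was just above its background reference of 74.8 and 91. The stricter reference, the 99th percentile, was exceeded on 5 of 8 arrays.

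**Figure D2:**
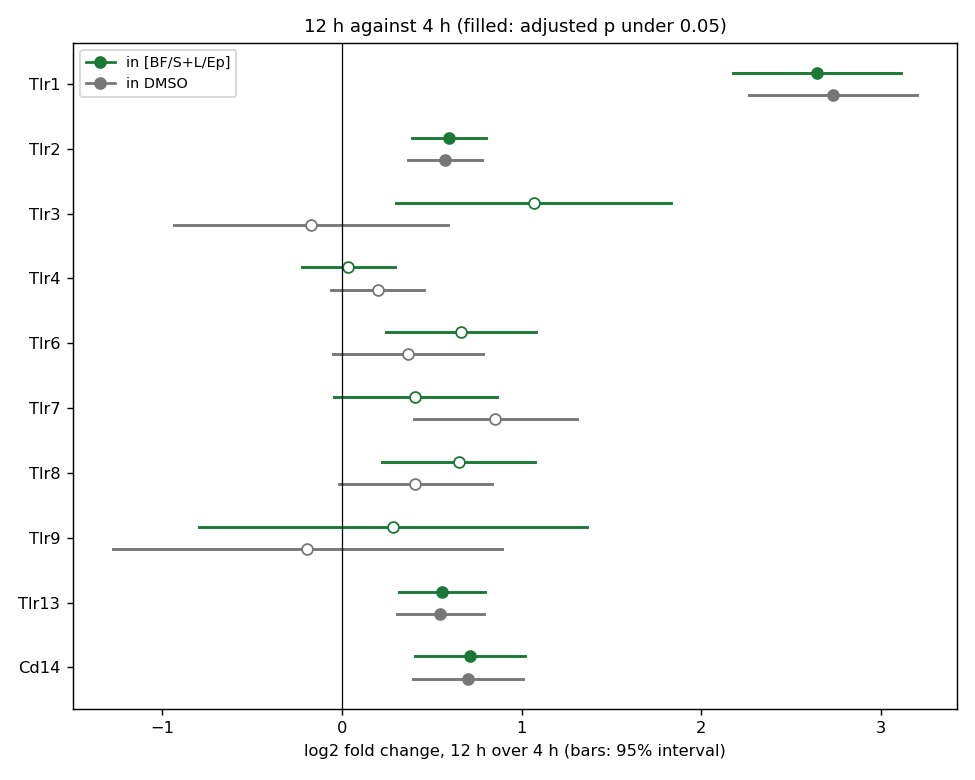
Log2 fold change of 12 h over 4 h for the main probe set of each member, in [BF/S+L/Ep] (upper) and in DMSO (lower), with 95% intervals as bars and filled points for an adjusted p under 0.05 by limma. Tlr1 stands apart at 2.64 and 2.73, and Tlr2, Tlr13 and Cd14 are filled under both treatments.

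Over all 10 members, 4 were higher at 12 h than at 4 h in [BF/S+L/Ep], against 1.55% of all probe sets, and the same 4 in DMSO, against 1.18% of all probe sets. With treatments averaged, 7 of the 10 were higher (Tlr1, Tlr2, Tlr6, Tlr7, Tlr8, Tlr13 and Cd14) and 0 lower, against 3.65% and 3.18% of all probe sets, and the 3 that did not pass were Tlr3, Tlr4 and Tlr9. With each array centred on its median 4 of the 7 were called, Tlr1, Tlr2, Tlr13 and Cd14, and leaving out any 1 array gave 4 to 6. Among the brighter probe sets, those that exceeded the reference on 4 or more arrays, as all 10 main ones did, 6.88% were higher. The members' median log2 fold change was 0.54, beside 0.03 over all probe sets. All 4 arrays of 12 h were above all 4 arrays of 4 h for 6 members (Tlr1, Tlr2, Tlr6, Tlr7, Tlr13 and Cd14), a pattern that 6.4% of all probe sets and 10.6% of the brighter ones showed. The comparisons in [BF/S+L/Ep] and in DMSO share no array, but they were fitted together with a common estimate of the spread. Their calls are therefore not independent. On the 4 arrays of [BF/S+L/Ep] alone, Tlr13 and Cd14 lost their calls (adjusted p = 0.0577 and 0.0803, limma), and Tlr1 and Tlr2 kept theirs. On the 4 arrays of DMSO alone all calls were kept. The test of a difference between the time effects of the treatments passed for no member.

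The calls for Tlr2, Tlr13 and Cd14 within a single treatment were lost when each array was centred on its median, and under that scaling 1 member was called in each treatment. A fit without the dependence of the spread on intensity called 0 members within either treatment and 1 with treatments averaged, Tlr1 (adjusted p = 0.0303, limma). With 1 array left out, and the lone array of its group assumed to vary like the others, Tlr1 kept every call. Tlr13 lost its call within a treatment without any 1 of that treatment's 4 arrays (adjusted p up to 0.106 in [BF/S+L/Ep] and 0.205 in DMSO, limma). Cd14 did so without any 1 of the 4 DMSO arrays (up to 0.275) and without 3 of the [BF/S+L/Ep] arrays, the exception being replicate 2 at 4 h (up to 0.148). Tlr2 lost its call in [BF/S+L/Ep] without replicate 1 at 12 h (0.0638), and in DMSO without replicate 2 at 12 h or either array at 4 h (up to 0.0998).

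Markers of conventional dendritic cells and of other cells moved with time as well, and their part in the results was not tested. With treatments averaged, 3.65% of all probe sets were higher at 12 h and 3.18% lower. Of 6 measured T and NK cell markers 1 was higher, and 0 markers of B cells, neutrophils, mast cells or stromal cells passed. Most markers of these lists did not exceed the background reference on all 8 arrays, so the lack of calls says little about those cells. Of 7 measured macrophage and monocyte markers, 3 were higher at 12 h with treatments averaged (Adgre1 by 1.21, C5ar1 by 0.81 and Mertk by 0.53 on the log2 scale) and 0 lower. The summed signal of that list was 101352 to 105171 in [BF/S+L/Ep] at 12 h and 111812 to 113349 in DMSO at 12 h. At 4 h it was 98384.5 to 113598 in [BF/S+L/Ep] and 108436 to 114651 in DMSO. Most of this sum came from Lyz2, Csf1r and Ccr2, with means of 48043.8, 36069.6 and 13332 in [BF/S+L/Ep] at 12 h. The means of Adgre1, C5ar1 and Mertk there were 2769.35, 810.3 and 756.7, so the sum cannot show their change. Of 10 conventional dendritic cell markers, Cd83, Zbtb46, Batf3 and Ccr7 were higher (0.78, 0.74, 0.60 and 0.57) and Itgax lower (-0.36). Of 8 plasmacytoid dendritic cell markers, a cell type known for Tlr7 and Tlr9, Ccr9 and Spib were higher (1.27 and 0.65). The summed signal of that list was 4672.2 to 4890.2 in [BF/S+L/Ep] at 12 h and 4587.9 to 4896.1 in DMSO at 12 h. At 4 h it was 4386.6 to 4750.2 in [BF/S+L/Ep] and 4713.8 to 4909 in DMSO. Bst2 made up a large part of it, with a mean of 2325.45 in [BF/S+L/Ep] at 12 h.

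The second question of the design, whether [BF/S+L/Ep] changed these receptors relative to DMSO, gave no call. By limma, 0 of 10 members passed at 4 h, against 0.00444% of all probe sets, 0 at 12 h, against 0.02%, and 0 with times averaged, against 0.107%. At an unadjusted p under 0.05 by limma there were 2, 2 and 7 members, beside 2238, 2684 and 3189 of all 45037 probe sets. After adjustment, 0 members passed under every alternative tried. At 4 h, 2 probe sets passed in all. They were those of Ahrr, the repressor of the aryl hydrocarbon receptor (1744.8 and 1773.3 in [BF/S+L/Ep], 730.8 and 775.3 in DMSO, adjusted p = 0.0133, limma), and Cxcl3, a neutrophil chemokine (3419.6 and 3377.6 in [BF/S+L/Ep], 1424.3 and 1462 in DMSO, adjusted p = 0.0133, limma).

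Although no member passed, most values leaned upward. The log2 fold change of [BF/S+L/Ep] over DMSO was positive for 7 of 10 members at 4 h and 9 of 10 at 12 h, with medians of 0.17 and 0.25, beside -0.02 and -0.03 over all probe sets. Both [BF/S+L/Ep] arrays were above both DMSO arrays for 5 members at 4 h (Tlr1, Tlr2, Tlr6, Tlr7 and Tlr13), against 15.1% of all probe sets, and for 8 at 12 h (all but Tlr4 and Tlr7), also against 15.1%. Tlr1, Tlr2, Tlr6 and Tlr13 showed this at both times, as 3.34% of all probe sets and 4.65% of the brighter ones did. The reverse, both [BF/S+L/Ep] arrays below both DMSO arrays, was seen for Tlr3 and Tlr4 at 4 h (17.6% of all probe sets) and for Tlr4 at 12 h (19.7%), and Tlr4 alone showed it at both times (4.29%).

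Of the receptors that leaned upward, Tlr1 had a log2 fold change of 0.38 (95% interval -0.09 to 0.85) at 12 h and 0.47 (0.01 to 0.94) at 4 h. Tlr8 had 0.49 (0.07 to 0.92) at 12 h and 0.25 (-0.17 to 0.68) at 4 h. Tlr7 had 0.11 (-0.35 to 0.56) at 12 h and 0.55 (0.10 to 1.01) at 4 h. The intervals for Tlr2, Tlr13 and Cd14 were narrower, and their upper ends at 12 h were 0.40, 0.42 and 0.55, so a doubling of any of these 3 lies outside them. For Tlr3 and Tlr9 the intervals at 12 h ran from -0.24 to 1.28 and from -0.83 to 1.34, and these arrays cannot exclude a doubling.

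**Figure D3:**
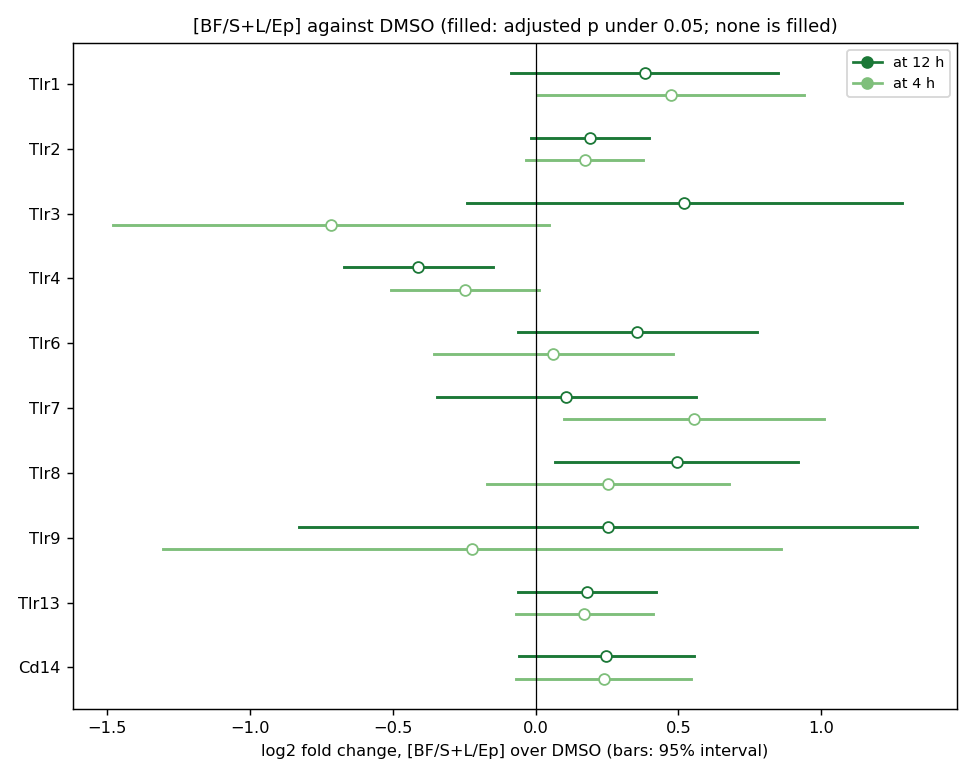
Log2 fold change of [BF/S+L/Ep] over DMSO for the main probe set of each member at 12 h (upper) and at 4 h (lower), with 95% intervals as bars. No point is filled, since no adjusted p by limma was under 0.05, and Tlr4 lies below 0 at both times, at -0.41 and -0.25.

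Tlr4 had the smallest p of the members between treatments. Its log2 fold change of [BF/S+L/Ep] over DMSO was -0.41 (95% interval -0.67 to -0.15) at 12 h, -0.25 (-0.51 to 0.01) at 4 h and -0.33 (-0.51 to -0.15) with times averaged, where the unadjusted p was 0.00196 and the adjusted p 0.321 by limma. This was not shared by the other Tlr4 probe sets. The averaged log2 fold change was 0.01 at 1418163_at (95% interval -0.26 to 0.28), which had signals between 735.9 and 1052.7, 0.01 at 1442827_at (-0.39 to 0.41), with signals between 218.9 and 458, and 0.08 at 1430695_at (-1.10 to 1.27), which was above the background reference on 1 array. Over time, 1442827_at had an averaged log2 fold change of 0.50 (adjusted p = 0.153, limma), with every 12 h array above every 4 h array, against 0.12 at the main probe set.

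The effect of [BF/S+L/Ep] at 12 h minus that at 4 h did not pass for any member (0 of 10, against 0% of all probe sets). An unadjusted p under 0.05 by limma was seen for 1 member, beside 1647 of all 45037 probe sets. That member was Tlr3, with a log2 fold change of [BF/S+L/Ep] over DMSO of 0.52 at 12 h and -0.72 at 4 h. The effect at 12 h minus that at 4 h was 1.24 (95% interval 0.16 to 2.32, unadjusted p = 0.0277, adjusted p = 1.0, limma). The other Tlr3 probe set, 1422781_at, was above the background reference on 3 of 8 arrays and gave 0.81 at 12 h and 0.64 at 4 h, with no change of sign.

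The further probe sets of Tlr7 did not carry its signal either. At 1449640_at the values lay between 33.2 and 107.1 and at 1419848_x_at between 36.7 and 122.7, above the background reference on 2 and 1 of the 8 arrays, and the averaged time effects were -0.34 and -0.51 on the log2 scale with intervals that include 0 (-1.37 to 0.69 and -1.58 to 0.56). Altogether 4 of the 6 further probe sets did not exceed the reference on 5 or more arrays.

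**Figure D4:**
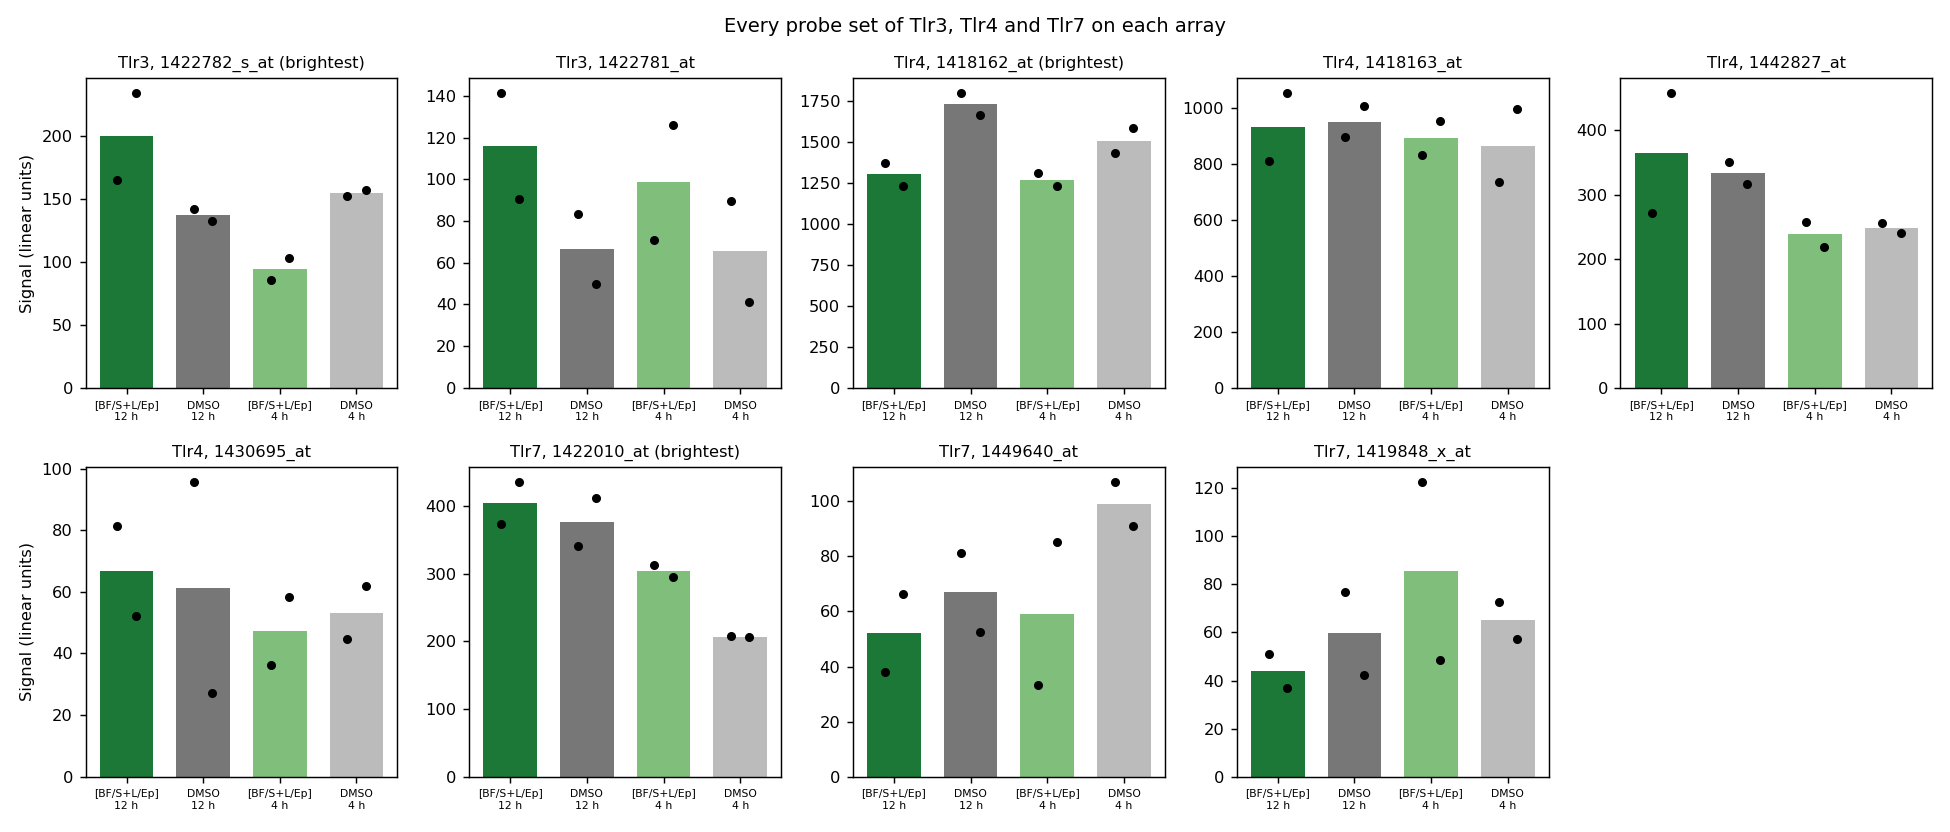
Signal in linear units on each array for all 9 probe sets of Tlr3, Tlr4 and Tlr7, with 1 panel per probe set and its own vertical axis from 0. Bars are means of 2 arrays and points are single arrays, and for Tlr4 both [BF/S+L/Ep] bars lie below the DMSO bar of their time at 1418162_at, but only the 12 h bar does at 1418163_at.

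The other components of the pathway were examined as 7 lists of 59 genes, of which 52 had a probe set of their own and 47 of these exceeded background on all 8 arrays. With treatments averaged, 10 were higher at 12 h, against 3.65% of all probe sets and 6.88% of the brighter ones, and 0 were lower. In [BF/S+L/Ep] 6 were higher, against 1.55% of all probe sets, and in DMSO 8, against 1.18%, with 0 lower in either. Of the other mouse Toll-like receptors, neither of the 2 measured passed, with Tlr12 above the background reference on 0 arrays and Tlr5, the flagellin receptor, on 2, and averaged log2 fold changes of 0.88 and 0.56 (SE 0.58 and 0.43).

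Of 5 genes for ligand transfer and co-receptors, 0 passed over time, and those with the smallest p were Cd180, a Toll-like receptor homologue that pairs with Ly86 (log2 fold change 0.55, SE 0.17, adjusted p = 0.0828, limma), and Ly86 (0.20, SE 0.08, adjusted p = 0.20, limma). Ly96, the partner of Tlr4, gave 0.25 (SE 0.11). Of 11 trafficking and cleavage genes, 2 were higher, namely Ap3b1, a subunit of the AP-3 sorting complex (0.47, SE 0.07, adjusted p = 0.00178, limma), and Ctsl, a lysosomal protease (0.47, SE 0.08, adjusted p = 0.00315, limma). Unc93b1 had signals of 9296.5 and 8229.7 in [BF/S+L/Ep] at 12 h, 7957 and 6794.7 in DMSO at 12 h, 8261.1 and 6590.9 in [BF/S+L/Ep] at 4 h, with 5959.6 and 7941 in DMSO at 4 h, and its 12 h and 4 h arrays overlapped under both treatments.

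Of 5 measured adaptors, 1 was higher, Pik3ap1 (BCAP), which links the receptors to phosphoinositide kinase (0.45, SE 0.07, adjusted p = 0.00151, limma). Myd88 lay between 2681 and 3117.6 on all arrays. Of 14 kinases and ubiquitin ligases, 3 were higher, namely Ikbke, a kinase that activates interferon regulatory factors (1.38, SE 0.08, adjusted p = 2.82e-07, limma), Irak2, a kinase recruited by Myd88 (0.88, SE 0.10, adjusted p = 1.02e-04, limma), and Ikbkb, the kinase that releases NF-κB (0.39, SE 0.07, adjusted p = 0.00486, limma). Ikbke had signals of 4212.3 and 3787 in [BF/S+L/Ep] at 12 h, with 3471.3 and 3461.1 in DMSO at 12 h, against 1506.5 and 1681.4 in [BF/S+L/Ep] at 4 h, with 1345.9 and 1240.2 in DMSO at 4 h. All its 12 h arrays were above all its 4 h arrays.

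Of 8 measured negative regulators, 2 were higher, namely Tnfaip3 (A20), an enzyme that edits ubiquitin chains and is itself induced by NF-κB (0.86, SE 0.08, adjusted p = 2.21e-05, limma), and Irak3 (IRAK-M), which holds back the IRAK kinases (0.44, SE 0.09, adjusted p = 0.00759, limma). Of 7 measured transcription factors, 2 were higher, namely Nfkb2, an NF-κB subunit (0.58, SE 0.09, adjusted p = 0.00203, limma), and Irf8, a factor needed for dendritic cell development (0.41, SE 0.07, adjusted p = 0.00368, limma). Both activators and inhibitors of the pathway were therefore among the genes higher at 12 h. The median log2 fold changes of the lists lay between -0.03 (adaptors) and 0.20 (ligand transfer and co-receptors) apart from the pair of weakly detected receptors, beside 0.03 over all probe sets.

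**Figure D5:**
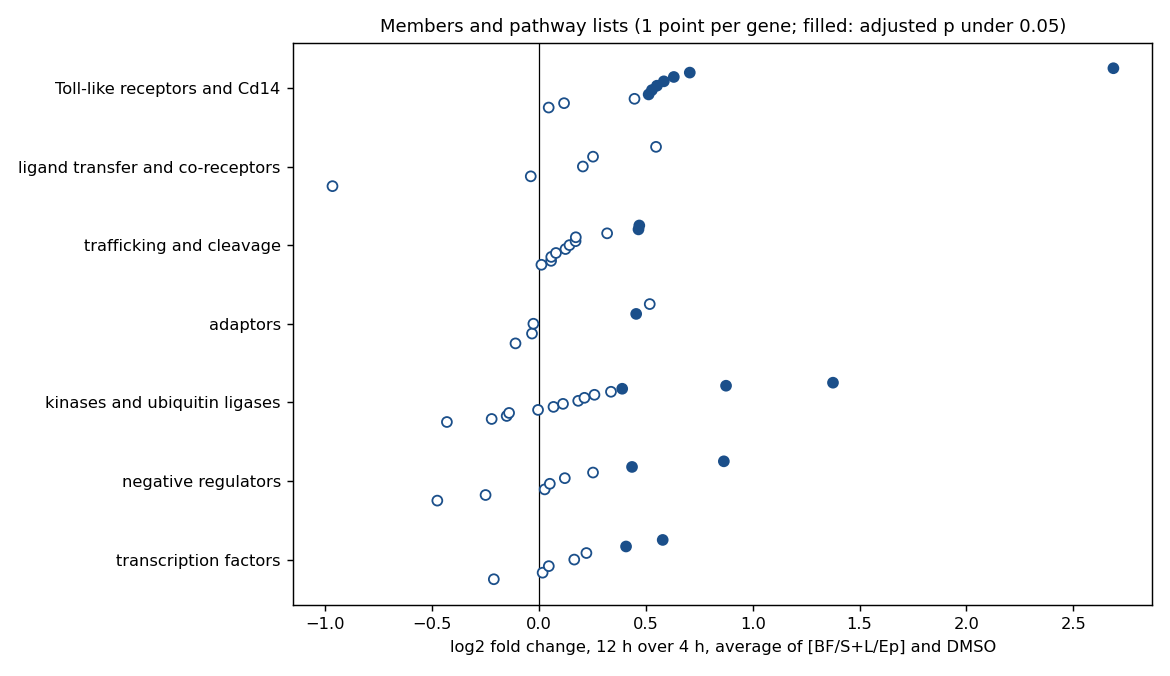
Log2 fold change of 12 h over 4 h, averaged over [BF/S+L/Ep] and DMSO, with 1 point per gene for the members and for 6 pathway lists, filled where the adjusted p by limma was under 0.05. Of the members 7 points are filled, and of the list genes 10, among which Ikbke lies farthest right at 1.38.

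Between [BF/S+L/Ep] and DMSO, 0 of the 52 list genes passed at 12 h, at 4 h or with times averaged by limma. The smallest p-values with times averaged were for Irak2 (log2 fold change 0.42, SE 0.10, adjusted p = 0.218, limma) and Ikbke (0.25, SE 0.08, adjusted p = 0.494, limma) among kinases. Irf7, which drives type I interferon genes, gave 0.42 (SE 0.13, adjusted p = 0.476, limma) and Nfkb2 0.21 (SE 0.09) among transcription factors. Tnfaip3 gave 0.22 (SE 0.08) and Irak3 0.16 (SE 0.09) among negative regulators, and Pik3ap1 0.22 (SE 0.07) and Sarm1 1.21 (SE 0.69) among adaptors, Sarm1 being above the background reference on 0 arrays. Among trafficking genes Cnpy4, a chaperone of surface receptors, gave -0.24 (SE 0.10) and Lgmn, a lysosomal protease, 0.21 (SE 0.10). Among co-receptors Ly86 gave -0.12 (SE 0.08) and Ly96 -0.16 (SE 0.11), and of the other receptors Tlr5 gave -0.23 (SE 0.43) and Tlr12 0.10 (SE 0.58).

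The genes with signals most like those of the 2 members with the widest range of group means among those above background on all arrays, Tlr3 and Tlr7, were taken from 16511 candidate probe sets by Pearson's r of the log2 signal over the 8 arrays. For Tlr3 they were Msl2 (0.96), Cd53 (0.92) and Npat (0.92), and for Tlr7 they were Ears2 (0.99), Plekhm3 (0.98) and Tmem189 (0.97). The 8 arrays share 4 groups of 2, and the values describe likeness on these arrays alone.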

How the data were processed

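Total RNA of BMDCs was hybridized by the authors to 8 Affymetrix mouse arrays, 2 for each of 4 groups. The deposited values are MAS5 signals, a linear intensity per probe set, which the authors scaled to a common trimmed mean (2% cut from each end in a check of the table). Of 45101 probe sets, 64 controls were left out. Probe sets were named from the platform annotation (34945 with 1 symbol, 932 with several, 9160 with none), and the 10 members have the same symbol in RefSeq. No column of another series was present.

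Log2 signals, with no offset, were fitted for all 45037 probe sets with limma 3.58.1 (R 4.3.3) as 4 group means, with moderated variances that follow the mean intensity, 4 residual degrees of freedom, two-sided tests and Benjamini-Hochberg adjustment at 0.05. Levels of different genes were set side by side only to show which genes made up a summed marker signal, and no test compared them. The script was tested on simulated data. The members and gene lists were chosen with earlier results of these data known, so none counts as independent support. The named genes are all members, and of each pathway list, for the 2 averaged comparisons, every gene that passed or, where none did, the 2 with the smallest p. Tlr3 and Tlr7 were matched to the 3 genes with the highest r. Ahrr and Cxcl3 are given as the genes that passed at 4 h. Ly96, Unc93b1 and Myd88 are named beside that rule, for their roles, with values only.

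Alternatives were quantile normalization, median centring, an offset of 50, tests of brighter probe sets alone (those that exceed the reference on 4 or more arrays, or on 2 or more), a fit without the intensity trend, a robust fit, a replicate block, the 4 arrays of a comparison alone, any probe set of a gene, other percentiles for the reference (90 and 99), and leaving out each array in turn. Promoters came from RefSeq (GRCm38.p6) and were available for 7 members, and the Cd14 sequence is not reported here.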

Additional observations from a re-analysis of the deposited data

Results flagged for a closer look

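Tlr3 was singled out because both [BF/S+L/Ep] arrays lay above both DMSO arrays at 12 h and below them at 4 h. Its log2 fold change of [BF/S+L/Ep] over DMSO was 0.52 at 12 h and -0.72 at 4 h, and that of 12 h over 4 h was 1.07 in [BF/S+L/Ep] and -0.17 in DMSO. The test of the difference itself gave 1.24 (SE 0.50, unadjusted p = 0.0277, adjusted p = 1.0, limma) and did not pass. The signals lay between 85.7 and 233.7, beside a background reference of 66.6 to 106.9. The lowest, 85.7 in [BF/S+L/Ep] at 4 h, was close to its reference of 74.8. The 99th percentile of the background probe sets was exceeded on 7 of 8 arrays. The other Tlr3 probe set gave 0.81 at 12 h and 0.64 at 4 h.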

How the results depend on the processing

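Of the 15 calls of single members over time, all 15 were retained with either filter, robust moderation and the replicate block, 14 with an offset of 50, 13 after quantile normalization, 6 with median centring and 1 without the intensity trend. With the 4 arrays of the comparison alone, 2 of 8 were lost (Tlr13 and Cd14 in [BF/S+L/Ep], leaving 2 members). Median centring left 1 member in [BF/S+L/Ep] (4 as reported), 1 in DMSO (4) and 4 averaged (7), and no intensity trend left 0, 0 and 1. Leaving out 1 array gave 1 to 4, 1 to 4 and 4 to 6. Without any single DMSO array Tlr13 and Cd14 lost their call in DMSO, as did Tlr13 in [BF/S+L/Ep] without any single [BF/S+L/Ep] array, whereas Tlr1 kept every call. The cause of these losses was not tested. The replicate block gave 4, 4 and 7 members. Whether the replicate numbers pair the arrays is not stated by the labels or the paper. The correlations of same-numbered deviations between groups ran from -0.03 to 0.11. Low values cannot settle this, since array noise can hide a weak pairing. No member was called between [BF/S+L/Ep] and DMSO under any alternative.

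Over all probe sets, 3079 were called over time with treatments averaged (53.4% higher), 2195 with median centring (43.2% higher) and 158 without the trend (42.4%). In [BF/S+L/Ep] 1289 were called, 713 with median centring and 711 on its 4 arrays alone, and in DMSO 948 (56.2% higher) and 505 with median centring (42.6%), both 0 without the trend. Leaving out 1 array gave 481 to 1089 in [BF/S+L/Ep], 310 to 1013 in DMSO and 1692 to 2795 averaged. Between treatments, 48 were called with times averaged and 8 to 54 on leaving out 1 array, 31 with median centring and 0 without the trend.

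No called value turned its direction. Of values that were not called, Tlr4 over time in [BF/S+L/Ep] was -0.022 with median centring, Tlr9 over time, averaged, was -0.043 after quantile normalization and -0.021 with median centring, and the Tlr1 difference of treatment effects was 0.029 with an offset of 50. On leaving out 1 array, the treatment effect ranged from -0.0076 to 0.51 (Tlr8) and from -0.94 to 0.49 (Tlr9) at 4 h, from -0.029 to 0.24 (Tlr7) at 12 h, and from -0.22 to 0.027 (Tlr3) and -0.34 to 0.37 (Tlr9) averaged. The difference of treatment effects ranged from -0.20 to 0.016 (Tlr1), -0.034 to 0.071 (Tlr2), -0.021 to 0.50 (Tlr8), -0.24 to 1.19 (Tlr9), -0.047 to 0.067 (Tlr13) and -0.21 to 0.23 (Cd14). The time effect ranged from -0.43 to 0.998 (Tlr9) and -0.043 to 0.11 (Tlr4) in [BF/S+L/Ep], from -0.77 to 0.39 (Tlr9) in DMSO, and from -0.31 to 0.40 (Tlr9) averaged.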
